A study of Homo sapiens with 6 samples.

Results

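The transcripts described here are the numbered long intergenic noncoding RNAs (LINC genes), the small nucleolar RNA (snoRNA) host genes of the SNHG series and GAS5, and the nuclear noncoding RNAs MALAT1 and NEAT1, measured by RNA-Seq in A549 cells with and without knock-down of KMT9α. Members were chosen by gene symbol and by a minimum of 30 counts summed over the 6 libraries, and each gene was read on its most counted transcript. This gave 127 members of 23180 gene symbols, namely 109 LINC genes, 15 SNHG genes, GAS5, MALAT1 and NEAT1. Another 327 matching symbols, 326 LINC genes and SNHG18, fell under the minimum, and 188 of them had no count in any library, which allows up to 3 counts in each. Just inside the minimum lay LINC00852 with 30 counts, LINC01587 with 30.5 and LINC00592 with 32, and just outside it LINC00926 with 28, LINC00933 with 27.5 and LINC01124 with 27.

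A549 is a human lung adenocarcinoma cell line. All cells were labelled wild type and passage 11, and were transfected with a control siRNA (siControl, 3 biological replicates) or with siRNA number 1 against KMT9α (siKMT9α, 3 biological replicates) at 65 nM in the presence of DharmaFECT 1, with RNA isolated 3 days later. The comparison asks which RNAs change in level when KMT9α, the catalytic subunit of a histone methyltransferase, is depleted. A single siRNA sequence was sequenced, so an effect of KMT9α loss and an effect of that sequence on other transcripts cannot be told apart.

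N6AMT1, the gene of KMT9α, was read at 10.2, 10.9 and 11.4 CPM (counts-per-million) in siControl and at 2.87, 3.22 and 3.35 CPM in siKMT9α cells, a log2 fold change of −1.77 ± 0.12 (SE, edgeR adjusted p = 1.43e-10). The libraries held 13740097 to 19832395.5 counts on 1 transcript per gene, and the members took 0.317 to 0.336% of them. Summed levels of 8 epithelial and A549 markers were 7283 to 7646 CPM in siControl and 6256 to 6387 CPM in siKMT9α cells, and CDKN2A, which is deleted in A549, was at 0 in all libraries. Single markers moved in both directions. Log2 fold changes were −2.76 for EPCAM, −1.28 for KRT8, −1.22 for AKR1B10, −0.75 for KRT18, −0.68 for KRT19 and −0.11 for NQO1. They were 0.70 for ALDH1A1 and 1.34 for CDH1. Fibroblast markers summed to 6.79 to 8.60 and 3.07 to 3.71 CPM with 1 of 5 at 0, endothelial markers to 0.468 to 0.803 and 0.0756 to 0.157 CPM, and leukocyte markers to 3.22 to 3.77 and 1.66 to 2.30 CPM with 2 of 4 at 0. The library of siKMT9α replicate 3, and to a lesser degree that of siControl replicate 2, held more RMRP and RPPH1, RNAs without a poly(A) tail, than the others. The values of both RNAs are given beside MALAT1 and NEAT1. Over genes with at least 10 counts in both libraries, siKMT9α replicate 3 differed from replicates 1 and 2 by a chi-square of 5.34 and 4.64 per gene. Replicates 1 and 2 differed from each other by 1.35. Among the controls, replicate 1 differed from replicates 2 and 3 by 4.76 and 4.04, and replicates 2 and 3 differed by 1.81. The causes were not tested.

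Long noncoding RNAs are transcribed and usually spliced and capped like messenger RNAs but are not known to be translated into a large protein. snoRNA host genes carry snoRNAs in their introns, which guide methylation and pseudouridylation of ribosomal RNA after the intron is excised. The spliced host RNA has short reading frames, and for several host genes, GAS5 among them, it is degraded by nonsense-mediated decay during translation. NEAT1 is the scaffold of nuclear paraspeckles, and MALAT1 is an abundant RNA of nuclear speckles.

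The member classes moved in different proportions. Of the 127 members, 106 had enough counts to be tested, and all 21 untested members were LINC genes with a mean below 1 CPM. Among the 106, 31 were higher and 46 lower in siKMT9α cells at an edgeR adjusted p under 0.05, or 72.6%, beside 75.6% of all 13877 genes tested. Knock-down changed most of the transcriptome, with 37.1% of all genes higher and 38.5% lower, so the share of members called is close to the background. At the study's stricter threshold (p under 1e-08 and an absolute log2 fold change over 0.26) 13 members passed, 8 higher and 5 lower, where 24.2% of all genes passed, 13.5% higher and 10.7% lower. In 80 of 106 members the 3 siKMT9α values lay entirely above (33) or below (47) the 3 siControl values, beside 77.0% of all genes (37.6% above and 39.4% below).

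**Figure D1:**
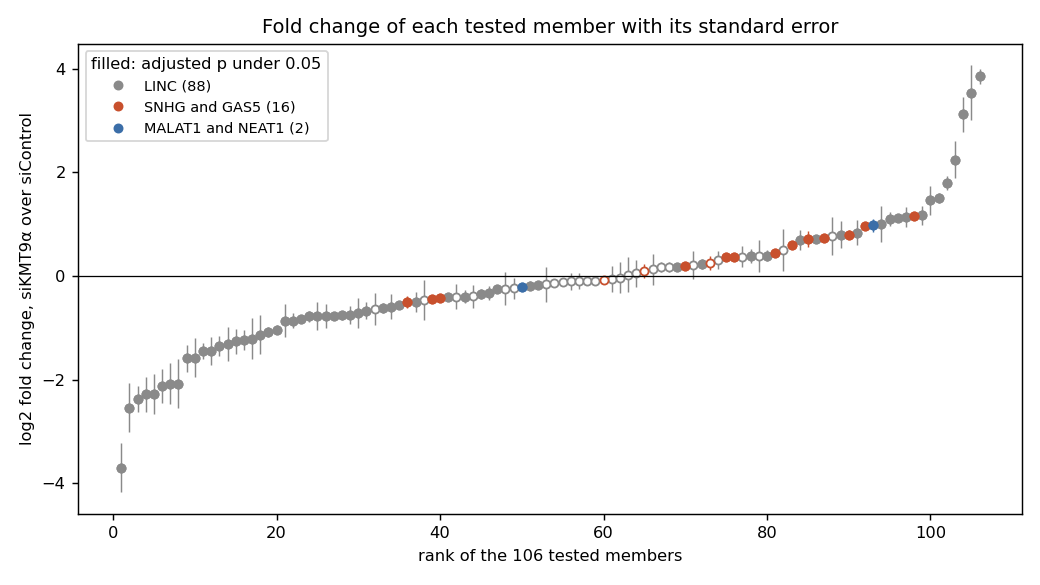
Log2 fold change of siKMT9α over siControl (y axis, bars are the standard error of the fit) of the 106 tested members, ranked from lowest to highest (x axis); orange points are SNHG genes and GAS5, grey points LINC genes, blue points MALAT1 and NEAT1, and filled points passed an adjusted p of 0.05. Host genes sit between −0.51 and 1.16, mostly right of the middle, while LINC genes, with LINC00888 (now SNHG33) among them, reach from −3.70 to 3.85.

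Of the 16 host genes, 10 were higher and 3 lower, and their median log2 fold change was 0.37, beside −0.01 over all genes tested. The classes follow the deposited symbols. LINC00888, now named SNHG33, is therefore counted with the LINC genes and not with the host genes. Its log2 fold change was −1.03 ± 0.09. With an offset for GC content and length the median of the host genes was 0.59, with 11 higher and 3 lower. With library size alone it was 0.26, with 9 higher and 4 lower. Of the 88 LINC genes tested, 20 were higher, 42 lower and 26 not called, with a median of −0.25. With the offset 21 were higher and 35 lower (median −0.19), with library size alone 17 and 47 (−0.35), and with DESeq2 16 and 33 (−0.23). Counted as shares of those tested, 62.5% of host genes and 22.7% of LINC genes were higher, and 18.8% and 47.7% were lower. These shares are descriptions, and the difference between the classes was not tested. Summed over the class, the host genes rose from 936, 971 and 920.3 CPM to 1457, 1466 and 1393 CPM, a ratio of 1.53, which was 1.30 without SNHG1. The LINC genes summed to 1484, 1449 and 1435 CPM in siControl and 1241, 1258 and 1263 CPM in siKMT9α cells, a ratio of 0.861 that was 0.919 without LINC00657. Members together went from 3104 ± 41.6 to 3376 ± 94.2 CPM (SD, n = 3 each).

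The filter on low counts bears on these numbers, because a rare gene can pass it through the group in which it is high. With at least 10 counts required in every sample, 79 members were tested and 27 were higher and 33 lower. LINC genes with a mean of at least 10 CPM, all 25 of which were tested, divided into 7 higher, 12 lower and 6 not called, and those from 1 to 10 CPM, all 39 tested, into 10 higher, 18 lower and 11 not called. Below 1 CPM, 24 of 45 were tested, with 3 higher and 12 lower.

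The 5′ ends of the host genes are shown first, since many genes of the translation machinery and several snoRNA host genes begin transcription at a run of pyrimidines, the 5′ terminal oligopyrimidine (TOP) motif, which in messenger RNAs couples translation to growth signals. Below are 30 bases of the hg19 (GRCh37) genome around the annotated start of 6 host genes that rose, 4 with the run described here and the 2 without it, of 1 that did not pass the test and of the 3 that fell, in the direction of transcription, with 5 bases before the start and 25 from it on. Capitals mark a run of at least 5 C or T that begins within 3 bases of the start.

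SNHG1, chr11:62623336-62623365, minus strand: gattcgTTCTCatttttctactgctcgtgg

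SNHG16, chr17:74553841-74553870, plus strand: gtctcgcgTTCTTTTCgaggtcggccgcgt

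SNHG12, chr1:28908342-28908371, minus strand: gcaTTCCCggtgtcgacttactagctgcaa

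GAS5, chr1:173837101-173837130, minus strand: tgTCTTTTCgaggtaggagtcgactcctgt

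SNHG15, chr7:45026235-45026264, minus strand: gcagcgcgcggcgtcagtcttggctggcag

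SNHG4, chr5:138609436-138609465, plus strand: ggcctgcagcaacggaaaggcgccacgctc

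SNHG3, chr1:28832450-28832479, plus strand: tttctgaTTCTCTaactgcgcatgcttctg

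SNHG8, chr4:119199912-119199941, plus strand: cctttcacattcgggaagcgtcgggattag

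SNHG11, chr20:37075292-37075321, plus strand: aggctgcagccgcgcccccagccgtatttc

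SNHG20, chr17:75084720-75084749, plus strand: gccggaagttgctgacggagctacttccgc

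Of the 9 host genes with such a run, 8 were higher (GAS5, SNHG1, SNHG5, SNHG6, SNHG7, SNHG12, SNHG16 and SNHG17) and SNHG3 was not called. Of the 7 without it, SNHG4 and SNHG15 were higher, SNHG8, SNHG11 and SNHG20 were lower, and SNHG9 and SNHG10 were not called. The class of SNHG8 depended on where a run may begin. Its printed bases are all C or T from the first through the annotated start, a stretch that would pass the minimum length. Only 4 of these bases lay inside the limit, so SNHG8 was placed with the genes without a run. Over all genes tested, 37.1% were higher and 38.5% lower, and over all host genes 62.5% were higher. The share of all genes with a run that were higher was not taken. A run was present at 56.2% of host gene starts, at 12.7% of the 102 LINC starts that could be read, at 40.5% of 42 protein-coding snoRNA host genes and at 15.8% of all 22142 starts. The run length was chosen after fold changes were known, the annotated start may lie some bases from the start used in A549, and no test was made.

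SNHG1 showed the largest rise among the host genes. It lies on chromosome 11 (62619460 to 62623360, minus strand) and its introns hold box C/D snoRNAs of the SNORD22 to SNORD31 group. It was read at 223, 233 and 226 CPM in siControl and at 523, 518 and 482 CPM in siKMT9α cells. The groups lay far apart relative to their spread, and the log2 fold change was 1.16 ± 0.05 (SE, edgeR adjusted p = 6.94e-14), or 2.23-fold. At 207 CPM per kb SNHG1 had the highest level per length of all members in siControl cells, ahead of SNHG5 at 205 CPM per kb.

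SNHG16 (chromosome 17, 74553846 to 74561430) followed with 87.6, 89.0 and 86.4 CPM in siControl and 174, 178 and 159.5 CPM in siKMT9α cells. The 3 control values lay within 3 CPM of each other and below every knock-down value, with a log2 fold change of 0.96 ± 0.05. SNHG15 went from 62.2, 67.9 and 61.5 to 114, 108 and 97.9 CPM, a log2 fold change of 0.74 ± 0.06. SNHG1, SNHG16 and SNHG15 were the 3 host genes past the study's threshold.

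SNHG12, the host of several H/ACA snoRNAs, was read at 8.81, 10.2 and 9.88 CPM in siControl and at 17.6, 15.7 and 16.9 CPM in siKMT9α cells. SNHG4 was rarer, at 2.97, 2.96 and 2.91 against 4.16, 4.82 and 5.34 CPM. SNHG6 was read at 26.1, 29.1 and 26.9 against 37.8, 46.0 and 39.8 CPM. The groups did not overlap for any of these, and the log2 fold changes were 0.80 ± 0.09, 0.71 ± 0.15 and 0.59 ± 0.07.

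GAS5, which was named for its accumulation in growth-arrested cells and holds 10 snoRNA rows inside its span on chromosome 1 (173833039 to 173837125), was read at 102, 106 and 94.1 CPM in siControl and at 134, 138 and 139 CPM in siKMT9α cells. The rise was smaller than that of SNHG1 but clear of the control range, at a log2 fold change of 0.44 ± 0.05 (edgeR adjusted p = 2.38e-07). SNHG5 rose from 104, 106 and 94.9 to 125, 136 and 133 CPM and SNHG7 from 69.2, 70.1 and 70.1 to 93.6, 87.0 and 90.1 CPM, both with a log2 fold change of 0.37 ± 0.05. SNHG17 rose the least of the called host genes, from 76.7, 77.8 and 75.5 to 88.3, 87.5 and 86.3 CPM. Its log2 fold change of 0.19 ± 0.05 depended on the scaling of the libraries, and with library size alone it was 0.08 with an adjusted p of 0.119. With the GC and length offset SNHG17, SNHG5 and SNHG7 had log2 fold changes of 0.38, 0.56 and 0.66.

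**Figure D2:**
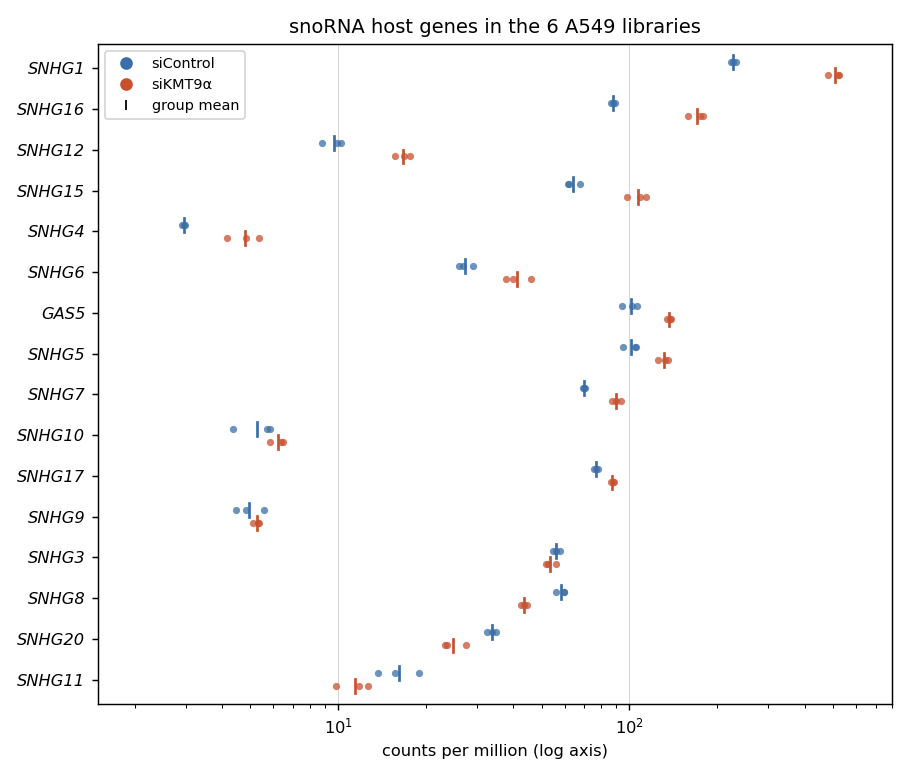
Level of each of the 16 snoRNA host genes in CPM (log axis) in the 3 siControl (blue) and 3 siKMT9α (orange) libraries, ordered by fold change from SNHG1 at the top to SNHG11 at the bottom; points are libraries and vertical bars are group means. In SNHG1, SNHG16 and SNHG15 the groups are furthest apart, and in SNHG8, SNHG20 and SNHG11 all siKMT9α libraries lie below the controls.

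Among the 16 host genes by deposited symbol, the 3 that fell were SNHG8, SNHG20 and SNHG11. SNHG8 was read at 59.6, 59.5 and 56.0 CPM in siControl and at 44.6, 43.5 and 42.6 CPM in siKMT9α cells, a log2 fold change of −0.42 ± 0.06. SNHG20 went from 32.6, 35.0 and 33.7 to 23.3, 27.5 and 23.6 CPM (−0.45 ± 0.07) and SNHG11 from 13.7, 19.02 and 15.7 to 12.6, 11.8 and 9.83 CPM (−0.51 ± 0.12). All 3 kept to lower values in every knock-down library. With an offset for GC content and length the log2 fold changes of SNHG8 and SNHG11 were −0.22 and −0.28, still called lower. SNHG3, SNHG9 and SNHG10 did not pass the test, with log2 fold changes of −0.07 ± 0.06, 0.09 ± 0.13 and 0.24 ± 0.13 and edgeR adjusted p-values of 0.264, 0.531 and 0.105. SNHG12, SNHG20, SNHG3, SNHG6, SNHG7 and GAS5 overlap another annotated gene, and whether reads were counted by strand is not given in the sources used here, so their counts can include reads of TRNAU1AP, SEC14L1, RCC1, MCMDC2, FAM69B and GAS5-AS1.

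The table also has rows for the snoRNAs themselves, 40 of which lie inside 13 of the host genes. These RNAs are short, have no poly(A) tail and sit in host introns, so reads over such a row may come from the snoRNA, its precursor or unspliced host RNA, which cannot be told apart. Only 15 rows reached 30 counts and 7 had enough to be tested, so the rows were summed per host. Inside SNHG1 they summed to 1.81, 1.73 and 2.03 CPM in siControl and 5.82, 7.53 and 8.68 CPM in siKMT9α cells, a ratio of 3.96 where the spliced host had 2.23. Inside GAS5 they summed to 4.14, 3.40 and 3.54 against 7.33, 7.97 and 7.64 CPM, a ratio of 2.07 beside 1.36 for the host. Inside SNHG12 the sums were 0.850, 0.864 and 0.728 against 2.34, 2.34 and 2.46 CPM, a ratio of 2.92 beside 1.74. In these 3 hosts every knock-down library lay above every control library. The sums inside SNHG7, SNHG16 and SNHG5 also did not overlap. They were 0.309 to 0.531 against 0.907 to 1.05 CPM for SNHG7, 0 to 0.106 against 0.302 to 0.471 CPM for SNHG16 and 0 to 0.104 against 0.146 to 0.605 CPM for SNHG5, which are few counts. The groups overlapped inside the other 7 hosts, namely SNHG4, SNHG6, SNHG15 and SNHG17, which were higher, SNHG9, which was not called, and SNHG8 and SNHG11, which were lower. In the falling hosts the mean sums were 0.217 ± 0.135 and 0.228 ± 0.082 CPM for SNHG8 and 0.170 ± 0.104 and 0.200 ± 0.080 CPM for SNHG11 (SD, n = 3). Other RNAs without a poly(A) tail were read as well, and their summed level overlapped between the groups. Of a list of 15, described below, 12 had too few counts to be tested, and 1 of the other 3 was higher. When no count filter was applied, 6 were higher and 0 lower, beside 5541 higher and 5607 lower of all 18751 genes. Whether the ratios inside the hosts exceed a wider difference of RNAs without a poly(A) tail was not tested.

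Single snoRNA rows that were tested were SNORD22, SNORD29 and SNORD31 in SNHG1, SNORD47, SNORD79 and SNORD80 in GAS5 and SNORA61 in SNHG12. SNORD22, the highest of the SNHG1 rows, was read at 0.796, 0.494 and 0.572 CPM in siControl and at 1.51, 2.48 and 3.77 CPM in siKMT9α cells. Its highest value fell in siKMT9α replicate 3, the library with the highest RMRP and RPPH1. SNORD47 was read at 1.59, 0.864 and 0.936 against 2.12, 2.56 and 2.04 CPM, without such a step in that library. All 7 rows were higher, with log2 fold changes from 0.90 ± 0.23 for SNORD80 to 2.10 ± 0.32 for SNORD22, but a row this rare passes the count filter more easily when it is high, so this count supports nothing on its own.

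Protein-coding snoRNA hosts and the proteins that bind snoRNAs were followed for comparison. Of 42 protein-coding hosts, which include ribosomal protein and translation factor genes, 23 were higher, 6 lower and 13 not called, with a median log2 fold change of 0.15, beside 37.1% of all genes higher and 38.5% lower. With library size alone 14 were higher and 13 lower, and with the GC and length offset 30 and 5. The largest rises were those of TNPO2, a nuclear import receptor (1.41 ± 0.07), and NCL, which encodes nucleolin (1.40 ± 0.05), and the largest falls those of ATP5B, a subunit of ATP synthase (−1.11 ± 0.05), and the chaperone gene HSPA8 (−0.85 ± 0.05). Among 14 genes for snoRNA-binding proteins and their assembly factors, 8 were higher and 4 lower, with a median of 0.16 and 85.7% called, beside 75.6% of all genes. With library size alone 4 were higher and 4 lower, since NAF1, NOP10, NOP58 and NUFIP1 were no longer called. The box C/D core genes NOP56 and FBL, the rRNA 2′-O-methyltransferase, rose by log2 fold changes of 0.70 ± 0.05 and 0.64 ± 0.06, while SNU13, which encodes the protein that first binds the snoRNA, fell from 182 to 66.9 CPM (−1.45 ± 0.06) and the assembly ATPase gene RUVBL2 fell with −0.66 ± 0.07. GAR1 and SHQ1, an H/ACA core protein and an H/ACA assembly factor, were not called at 0.06 ± 0.05 and 0.11 ± 0.07, although both were higher with the GC and length offset (0.20 and 0.14). NOP56 and DKC1 stand in both lists.

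Nonsense-mediated decay is the route by which many spliced host RNAs are removed. Of 15 genes of this pathway, 8 were higher, 2 lower and 5 not called, with a median log2 fold change of 0.25 and 66.7% called, beside 75.6% of all genes. The split moved with the processing, to 7 higher and 5 lower with library size alone and to 10 higher and 5 lower with the GC and length offset. RBM8A, a component of the exon junction complex, went from 54.2 to 97.1 CPM (0.84 ± 0.06) and UPF1, the central helicase, from 58.4 to 103 CPM (0.83 ± 0.06). EIF4A3, the helicase that anchors the exon junction complex, fell (−0.24 ± 0.05), as did SMG8, a regulator of the UPF1 kinase (−0.21 ± 0.05). SMG1, which is that kinase, CASC3, UPF2, MAGOH and UPF3B had log2 fold changes of −0.06, −0.04, −0.03, 0.03 and 0.09 and were not called. With the GC and length offset SMG1, CASC3 and UPF2 were lower (−0.58, −0.18 and −0.21) and MAGOH and UPF3B higher (0.24 and 0.17). SMG1, CASC3 and UPF2 were also lower with library size alone (−0.17, −0.15 and −0.13), and SMG1 was lower without siKMT9α replicate 3 (−0.15). For the 19 genes of the RNA exosome and its nuclear cofactors, which trim and degrade nuclear RNA, the counts were 5 higher, 9 lower and 5 not called, and 73.7% were called. EXOSC5, a structural subunit, fell from 63.4 to 10.5 CPM (−2.60 ± 0.07) and SKIV2L2, the MTR4 helicase, fell with −0.61 ± 0.05. PAPD5, a noncanonical poly(A) polymerase, and EXOSC7 rose by 0.77 ± 0.08 and 0.55 ± 0.06, and EXOSC6, EXOSC2, EXOSC3, DIS3 and ZFC3H1 were not called (−0.12 to 0.09). With the GC and length offset EXOSC3 was higher (0.17) and DIS3 and ZFC3H1 lower (−0.25 and −0.15), and with library size alone EXOSC6 was lower (−0.23).

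The nuclear RNAs MALAT1 and NEAT1, neighbours on chromosome 11, gave different values. MALAT1 (65265233 to 65273939, plus strand) was read at 59.6, 66.7 and 71.8 CPM in siControl and at 101, 114 and 172 CPM in siKMT9α cells. Every knock-down value lay above the control range, with a log2 fold change of 0.98 ± 0.13 (edgeR adjusted p = 1.10e-06), but replicate 3 stood well above replicates 1 and 2. Without that library the log2 fold change was 0.71.

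NEAT1 was read on its short transcript (65190269 to 65194003, plus strand) at 591, 664 and 666 CPM in siControl and at 507, 502 and 655 CPM in siKMT9α cells. Replicate 3 of the knock-down lay inside the control range, so the groups overlapped. The fitted log2 fold change was −0.21 ± 0.08 with an edgeR adjusted p of 0.0238, and the call depended on the processing. DESeq2 gave an adjusted p of 0.204, leaving out a library gave adjusted p-values up to 0.173, and without siKMT9α replicate 3 the log2 fold change was −0.34. NEAT1 had the highest CPM of all members but, per length, lay below SNHG1, SNHG5 and LINC00493 in siControl cells, at 171 against 207, 205 and 173 CPM per kb.

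RMRP and RPPH1, RNA polymerase III transcripts without a poly(A) tail, were also highest in that library. RMRP, the RNA of RNase MRP, was read at 0.956, 3.77 and 0.936 CPM in siControl and at 0.680, 1.02 and 7.53 CPM in siKMT9α cells. RPPH1, the RNA of RNase P, was read at 0.637, 4.32 and 1.04 against 1.21, 1.75 and 7.32 CPM. The next highest value of both was that of siControl replicate 2, and neither passed the test between groups. Their log2 fold changes of 0.97 and 1.01 turned to −1.06 and −0.34 without siKMT9α replicate 3. Of a list of 15 such RNAs in the table, 3 were tested and SCARNA12, which guides modification in Cajal bodies, was higher (1.32 ± 0.19). Their summed level was 3.93, 11.1 and 5.41 CPM in siControl and 10.3, 9.65 and 22.5 CPM in siKMT9α cells. TUG1, another long noncoding RNA with a nuclear pool, chosen after its values were seen, was read at 153, 143 and 147 against 203, 209.7 and 235 CPM (0.55 ± 0.06, and 0.29 with the GC and length offset). In siKMT9α replicate 3, MALAT1 was 1.60 times and NEAT1 1.30 times the mean of replicates 1 and 2, TUG1 1.14 times, GAS5 1.02 times, and SNHG1 and SNHG16 were 0.925 and 0.905 times theirs. Across the 106 tested members the median of this ratio was 1.02, and 19.8% exceeded 1.2, beside 9.67% of all genes tested. The members are rarer, at a median of 3.63 CPM beside 24.8 CPM, and ratios of rare genes scatter more. No share was taken over genes of like level. The part of this library difference in the MALAT1 and NEAT1 values was not tested beyond leaving the library out.

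**Figure D3:**
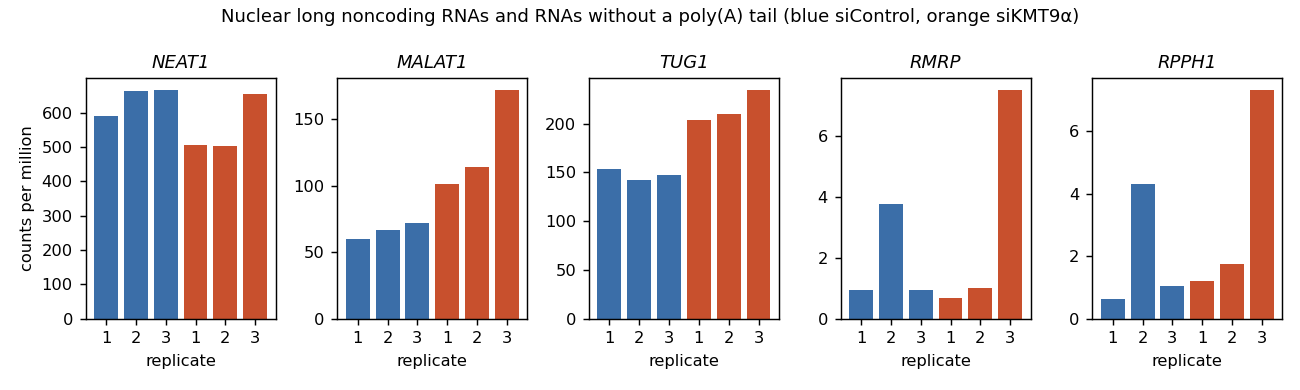
CPM (y axes, each starting at 0) of NEAT1, MALAT1, TUG1, RMRP and RPPH1 in each library, with siControl replicates 1 to 3 in blue and siKMT9α replicates 1 to 3 in orange. MALAT1 and TUG1 are higher in all siKMT9α libraries, NEAT1 overlaps between groups, and RMRP and RPPH1 peak in siKMT9α replicate 3 at 7.53 and 7.32 CPM.

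Paraspeckles form when proteins of the DBHS family and other RNA-binding proteins assemble on NEAT1. Of 15 genes for such proteins, 8 were higher, 5 lower and 2 not called, with a median log2 fold change of 0.17 and 86.7% called, beside 75.6% of all genes. RBMX rose from 101 to 241 CPM (1.26 ± 0.05) and SMARCA4, a chromatin remodeller found in paraspeckles, from 5.53 to 13.3 CPM (1.26 ± 0.12). The DBHS genes SFPQ, NONO and PSPC1, chosen after their values were seen, had log2 fold changes of 1.22 ± 0.05, 0.13 ± 0.05 and −0.36 ± 0.06, and NONO was not called with library size alone (0.03) or with the GC and length offset (0.07). TARDBP, which encodes TDP-43, fell from 200 to 105 CPM (−0.93 ± 0.05) and HNRNPH3 fell with −0.65 ± 0.05. RBM14 and NUDT21, at 0.17 ± 0.08 and 0.08 ± 0.05, were not called, though RBM14 was called higher with RLE scaling or no filter (0.18 in both).

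The LINC genes were on the whole rare. Their median level was 0.778 CPM per kb in siControl cells, beside 46.7 CPM per kb for the host genes, with a range from 0.0200 to 173. The 6 with the highest level per length included 3 that RefSeq now lists as protein coding, namely LINC00493 (SMIM26), LINC01420 (NBDY) and LINC00998 (SMIM30), all of which encode small proteins. LINC00657, now NORAD, an RNA that binds PUMILIO proteins and guards genome stability, had the highest CPM of the LINC genes. It was read at 537, 473 and 490.1 CPM in siControl and at 368, 374 and 383 CPM in siKMT9α cells, with no overlap and a log2 fold change of −0.41 ± 0.05.

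LINC00998 was read at 96.9, 103 and 94.3 against 66.7, 63.8 and 67.7 CPM, a log2 fold change of −0.57 ± 0.05 that passed the study's threshold. LINC01420, whose peptide locates to P-bodies, went from 70.7, 71.5 and 72.8 to 61.7, 63.6 and 56.2 CPM (−0.25 ± 0.06), and LINC00493 from 85.2, 91.1 and 77.4 to 76.2, 76.4 and 71.6 CPM (−0.18 ± 0.06). With an offset for GC content and length, the log2 fold changes of LINC01420 and LINC00493 were −0.03 and 0.00, and that of LINC00998 was −0.35. LINC00152 (CYTOR), at 87.3, 95.6 and 92.3 against 89.1, 90.1 and 79.4 CPM, and LINC01578 (CHASERR), at 46.8, 44.2 and 43.0 against 39.9, 40.8 and 41.8 CPM, were not called (edgeR adjusted p = 0.143 and 0.0531). For LINC01578 the groups nonetheless did not overlap, and the call changed with the scaling and the filter.

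The largest rise among all members was that of LINC00707 on chromosome 10 (6821560 to 6884868, plus strand). It was read at 1.06, 1.73 and 1.40 CPM in siControl and at 20.6, 21.2 and 18.6 CPM in siKMT9α cells. The RNA was rare in every control library and rose to the level of a common LINC gene in every knock-down library, 14.4-fold on the fitted scale (log2 fold change 3.85 ± 0.14, edgeR adjusted p = 8.52e-15). LINC00641 on chromosome 14 (21668238 to 21673662) went from 5.68, 5.68 and 5.72 to 16.5, 17.8 and 24.01 CPM (1.79 ± 0.13). LINC01000 on chromosome 7 (128281295 to 128301052) went from 7.54, 8.40 and 8.01 to 21.4, 21.6 and 24.6 CPM (1.51 ± 0.09). Both were highest in siKMT9α replicate 3, LINC00641 at 1.40 times the mean of the other two, yet stood above all controls in each library.

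LINC00673 on chromosome 17 rose from 23.0, 23.9 and 25.3 to 50.9, 51.3 and 55.1 CPM (1.13 ± 0.06), the largest absolute gain of a LINC gene. LINC00312, LINC00176, LINC00265 and LINC01004 were rarer. LINC00312 was read at 0.478, 0.123 and 0.468 against 1.21, 1.75 and 2.20 CPM (2.25 ± 0.35), and LINC00176, listed by RefSeq as the coding gene C20orf204, at 0.743, 0.864 and 0.624 against 2.34, 1.32 and 2.35 CPM (1.46 ± 0.27). LINC00265 was read at 1.70, 1.98 and 1.56 against 3.48, 4.09 and 4.08 CPM (1.17 ± 0.18) and LINC01004 at 2.12, 3.46 and 2.81 against 5.59, 4.604 and 7.64 CPM (1.14 ± 0.19). These 8 are the largest called rises without overlap between groups among LINC genes with a mean of at least 1 CPM, so the separation of the groups was part of the choice. Over all genes tested, 10.1% were higher by more than 2-fold and 10.3% lower, and among the 88 LINC genes 11 were higher and 20 lower by that much. These counts depended on the level. They were 4 higher and 2 lower of 25 LINC genes with a mean of at least 10 CPM, and 5 and 8 of 39 from 1 to 10 CPM. Below 1 CPM they were 2 and 10 of 24 tested, where a gene can pass the count filter through the group in which it is high.

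**Figure D4:**
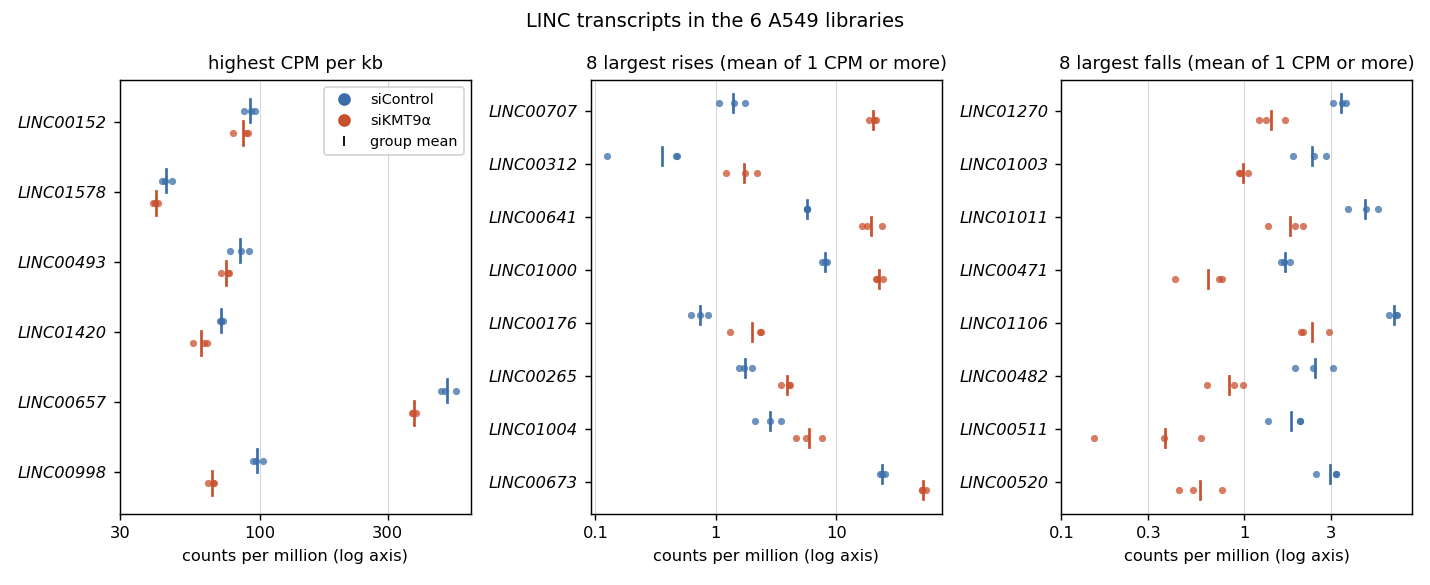
CPM (log axes, with different ranges) of the 6 LINC genes with the highest level per length (left), and of the 8 largest called rises (middle) and falls (right) among LINC genes with a mean of at least 1 CPM; blue points are siControl and orange points siKMT9α libraries, and vertical bars are group means. LINC00707 moves the furthest, from about 1 to about 20 CPM.

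The 8 largest falls, chosen in the same way among LINC genes with a mean of at least 1 CPM, were all of rare RNAs. LINC00520 on chromosome 14 was read at 3.19, 3.21 and 2.495 CPM in siControl and at 0.756, 0.438 and 0.523 CPM in siKMT9α cells (−2.37 ± 0.25, 5.17-fold lower, edgeR adjusted p = 7.16e-08). LINC00511 on chromosome 17 was read at 2.02, 1.36 and 2.03 against 0.151, 0.585 and 0.366 CPM (−2.28 ± 0.34). The controls of both lay well above the knock-down libraries, although 0.151 CPM corresponds to few reads. LINC01106 (6.27, 6.79 and 6.91 against 2.12, 2.05 and 2.93 CPM) and LINC01011 (5.42, 3.70 and 4.68 against 1.36, 1.90 and 2.09 CPM) were the most abundant of the 8, at −1.45 ± 0.15 and −1.34 ± 0.19. LINC00482, LINC00471, LINC01003 and LINC01270 had log2 fold changes of −1.59, −1.45, −1.26 and −1.23 with standard errors of 0.19 to 0.27.

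Outside the rule for naming, and chosen after their values were seen, are LINC genes that changed strongly but had means under 1 CPM. LINC00987 was read at 0.212, 0.185 and 0.156 against 1.81, 1.83 and 1.41 CPM, LINC00672 at 0.159, 0.0617 and 0 against 0.907, 1.17 and 0.785 CPM, and LINC00957 at 1.11, 1.48 and 1.09 against 0.151, 0 and 0.105 CPM. Their log2 fold changes were 3.12 ± 0.34, 3.54 ± 0.53 and −3.70 ± 0.48, the last the lowest of all tested members, and each rests on few reads in its lower group. LINC00957 overlaps RASA4CP. Among more abundant genes, also chosen after their values were seen, LINC00847 fell from 61.2, 64.2 and 62.1 to 38.0, 37.4 and 35.2 CPM (−0.76 ± 0.06) and LINC01278 rose from 17.2, 16.2 and 18.0 to 28.1, 27.6 and 29.1 CPM (0.72 ± 0.07).

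Symbols of the LINC series include genes that have since been reclassified. RefSeq (GRCh38.p14) gives 25 members another symbol and lists 10 of the 127 as protein coding, 8 of which were tested. Of these 8, LINC00176 and LINC00672 were higher, LINC00094 (BRD3OS), LINC00116 (MTLN, mitoregulin), LINC00493, LINC00998 and LINC01420 were lower, and LINC01207 (SMIM31) was not called. Over all genes tested, 37.1% were higher and 38.5% lower. LINC00493 and LINC01420 were not called with the GC and length offset (0.00 and −0.03). This grouping was made after fold changes were known. LINC00116 went from 43.8, 45.8 and 43.7 to 25.02, 27.0 and 23.3 CPM (−0.83 ± 0.07) and LINC00094, which overlaps BRD3, from 19.5, 16.7 and 18.0 to 8.92, 8.18 and 8.47 CPM (−1.09 ± 0.09). The groups were distinct for both. LINC00888, now SNHG33, was also chosen after its values were seen and was read at 19.3, 20.6 and 18.3 against 8.92, 9.65 and 9.73 CPM (−1.03 ± 0.09). Leaving out the 10 coding genes, 18 LINC genes were higher and 37 lower of 80 tested.

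Members that lie next to each other could differ in direction. Of 8 pairs of members within 50 kb, 4 had both members tested. On chromosome 17, LINC00673 lies 5237 bases from LINC00511, and the former rose (1.13 ± 0.06) while the latter fell (−2.28 ± 0.34). On chromosome 20, SNHG17 and SNHG11 lie 11279 bases apart on opposite strands, with log2 fold changes of 0.19 ± 0.05 and −0.51 ± 0.12. On chromosome 6, LINC00473 and LINC00602 overlap by 488 bases, with 0.18 ± 0.07 and −0.33 ± 0.14. The last contrast was fragile, since LINC00473 was not called with library size alone (0.07) and neither was called by DESeq2. LINC00602 had an edgeR adjusted p of 0.156 without siKMT9α replicate 3 and was not called with the GC and length offset (−0.13). A less counted transcript of LINC00473 had −0.11 ± 0.13 and was not called. LINC01128 was higher (0.38 ± 0.14), a call lost with library size alone (0.28, edgeR adjusted p = 0.0759), without siControl replicate 2 (0.32) and without siKMT9α replicate 1 (0.24, edgeR adjusted p = 0.128), and its neighbour LINC00115 was not called (0.02 ± 0.33). Differences within pairs were not tested as such.

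**Figure D5:**
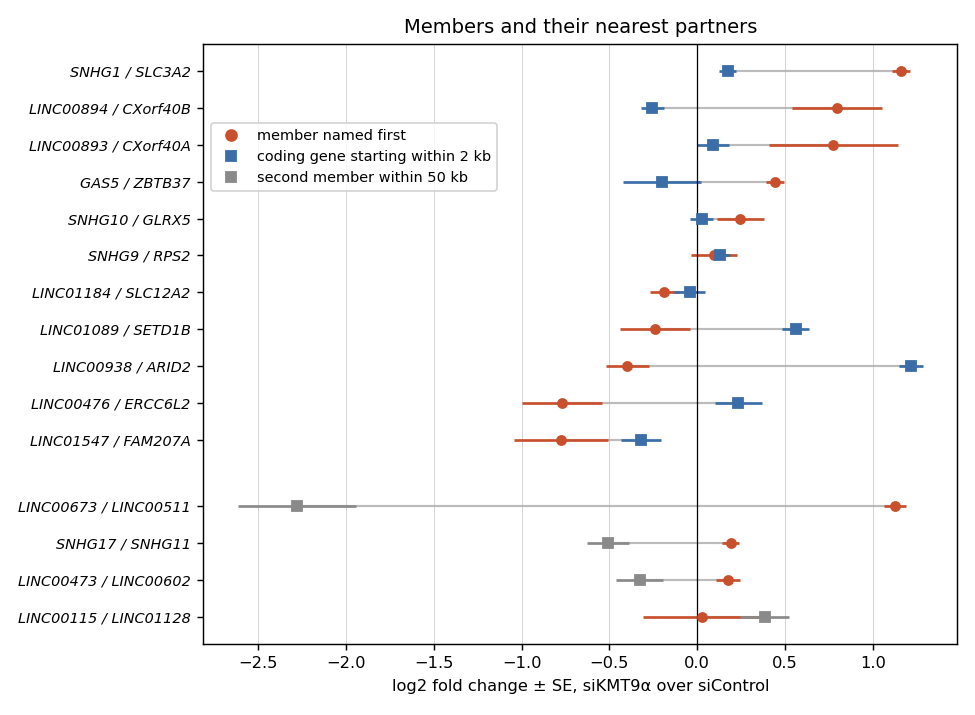
Log2 fold change with standard error (x axis) of 11 members and the coding gene that starts within 2 kb on the opposite strand (upper rows, orange circles and blue squares) and of 4 pairs of members within 50 kb (lower rows, orange circles and grey squares). SNHG1 lies at 1.16 and SLC3A2 at 0.17, and LINC00673 and LINC00511 lie on opposite sides of 0.

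Divergent transcription from a shared promoter region gives many noncoding RNAs a coding partner. Within 2 kb of its start, 12 members had the start of a protein-coding gene on the opposite strand, and in 11 of these pairs both were tested. In 4 pairs both genes were called, where 75.6% of all single genes tested were called. No share was taken over other pairs of genes. SNHG1 and SLC3A2, which encodes the heavy chain of amino acid transporters, start 124 bases apart, and SLC3A2 went from 2250 to 2535 CPM (0.17 ± 0.05) where SNHG1 rose 2.23-fold. LINC01547 and FAM207A both fell (−0.78 ± 0.27 and −0.32 ± 0.12). LINC00938 fell (−0.40 ± 0.12) beside a rise of ARID2, a subunit of the PBAF chromatin remodelling complex, from 23.6 to 54.6 CPM (1.22 ± 0.07). LINC00894 rose (0.80 ± 0.26) beside a fall of CXorf40B (−0.26 ± 0.06). DESeq2 called neither LINC01547 nor LINC00894. LINC01547 was also not called with the GC and length offset (−0.57, edgeR adjusted p = 0.0565) or without siControl replicate 3 (−0.54, edgeR adjusted p = 0.110). SLC3A2 was not called with library size alone (0.07), and FAM207A and CXorf40B were not called with the GC and length offset (0.00 and −0.03).

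In the other 7 pairs at most 1 gene was called. GAS5 was higher while ZBTB37, 368 bases away, was not called (−0.20 ± 0.22), and LINC00476 was lower (−0.77 ± 0.23) while ERCC6L2, a DNA repair helicase gene with which it overlaps, was not called (0.23 ± 0.13). SETD1B, a histone methyltransferase gene, was higher (0.56 ± 0.08) beside LINC01089 at −0.24 ± 0.20. LINC01184 was barely lower (−0.19 ± 0.08, edgeR adjusted p = 0.0459), a call that 10 alternatives lost, beside SLC12A2 at −0.04 ± 0.09. SNHG9 and RPS2 had 0.09 ± 0.13 and 0.13 ± 0.06, RPS2 being called at an edgeR adjusted p of 0.0493 that 7 alternatives lost, SNHG10 and GLRX5 0.24 ± 0.13 and 0.03 ± 0.07, and LINC00893 and CXorf40A 0.77 ± 0.37 and 0.09 ± 0.09. LINC00592 and C12orf80 were too rare to be tested.

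Long noncoding RNAs with other names were read for comparison. Of a list of 41, 34 were in the table and 27 tested, with 10 higher, 11 lower and 6 not called, or 77.8% called, and a median log2 fold change of −0.07. The largest rises were those of MIR31HG, the host of a microRNA, from 1.82 to 9.69 CPM (2.44 ± 0.16), and of OIP5-AS1, from 4.54 to 21.7 CPM (2.24 ± 0.11). STARD4-AS1 and TTN-AS1 fell the most (−1.29 ± 0.27 and −1.17 ± 0.17). Across all 1088 other tested genes with a noncoding accession, 35.2% were higher and 31.1% lower.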

How the data were processed

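RNA-Seq was done on 6 A549 samples, 3 per group. The authors aligned reads to hg19 with STAR version 2.5, counted them with HOMER (analyzeRepeats) and deposited 1 table of estimated counts per RefSeq transcript, in steps of 0.5 with 36.4% of values not whole. Library preparation and strand setting are not given in the sources used here. The table's columns of the authors' own comparison (fold changes and p-values) were not used.

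Of 38767 rows, 1182 without symbol and counts were left out. Counts were rounded, the transcript with the largest summed count was kept per symbol, and edgeR 4.0.16 (R 4.3.3) was run with filterByExpr, TMM scaling, the quasi-likelihood test on group alone and Benjamini-Hochberg adjustment over 13877 genes. Errors of log2 fold changes are standard errors, others are SD. CPM used TMM-scaled library sizes, and CPM per kb the deposited length. The biological coefficient of variation was 4.47%. In counts simulated for this comparison on the same genes, the fit called 196 of 200 genes changed by 2-fold among 13812 tested. It also called 7 unchanged genes. The rarest genes were not among those changed, few genes were changed, and no deviating library was simulated. The result therefore does not carry over to rare members, to siKMT9α replicate 3 or to siControl replicate 1. Alternatives included DESeq2 1.42.0, other scalings and filters, and offsets for GC content and length. Spans and sequences came from GRCh37 with GENCODE release 44 lifted to it.

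Members and lists were chosen with earlier results of these data known. Named genes were MALAT1, NEAT1 and all host genes, the 6 LINC genes with the highest CPM per kb and the 8 largest called, non-overlapping changes in each direction with a mean of at least 1 CPM, genes in described pairs and, per list, the 2 largest calls in each direction and up to 5 uncalled genes. The limit of 3 counts given for a count of 0 covers counting error only.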

Additional observations from a re-analysis of the deposited data

How the results depend on the processing

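The number of members called ranged from 60 to 82 over all alternatives against 77, and the number of called host genes from 13 to 14 against 13. Scaling by library size alone moved the median of all genes from −0.01 to −0.12 and the members to 27 higher and 52 lower, and SNHG3 was then lower. Counts past the study's threshold depended on the method, since 13 members passed in the reported fit, 38 with no filter, 40 with edgeR's likelihood-ratio test, 24 with offsets for GC content and length, 24 with these offsets and the replicate block, 22 with DESeq2, and 8 to 17 when 1 library was left out, with 8 without siKMT9α replicate 2. Of the RNAs without a poly(A) tail, 1 was called, against 6 with no filter, 2 with the offsets, 3 with the offsets and the block, and 1 to 3 when 1 library was left out.

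Values reversed for 6 named members with reported log2 fold changes from −0.18 to 0.09. LINC00115 had −0.08 with library size alone and −0.28 to 0.31 when 1 library was left out (−0.02, −0.14 and −0.28 without siControl replicates 2 and 3 and siKMT9α replicate 3). LINC01207 had −0.05 with library size alone and −0.12 to 0.18 when 1 library was left out (−0.12 and −0.11 without siControl replicate 1 and siKMT9α replicate 3). SNHG9 had −0.01 with library size alone. With the offsets, with or without the block, LINC00152 had 0.06, LINC00493 0.00 and LINC01578 0.03.

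The other named genes were added to the alternatives after the data were seen. With library size alone, GAR1 had −0.04, MAGOH −0.07, UPF3B −0.01, EXOSC3 −0.10, DIS3 −0.09, ZFC3H1 −0.02, NUDT21 −0.03, GLRX5 −0.08 and CXorf40A −0.02. With the offsets, DIS3 had −0.25 (−0.24 with the block), and with or without the block ZFC3H1 had −0.15, NUDT21 −0.03 and EXOSC2 0.06. With at least 10 counts in every sample EXOSC3 had −0.01 and DIS3 0.00, and EXOSC2 had 0.01 with RLE scaling, with no filter and with DESeq2. When 1 library was left out, the ranges were −1.06 to 1.90 for RMRP and −0.34 to 2.18 for RPPH1, whose lowest values came without siKMT9α replicate 3, and −0.05 to 0.00 for CASC3, −0.05 to 0.04 for UPF2, −0.02 to 0.11 for MAGOH, −0.03 to 0.03 for EXOSC2, −0.01 to 0.05 for DIS3, −0.20 to 0.03 for SLC12A2 and −0.01 to 0.08 for GLRX5.

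Replicate numbers gave no sign of a pairing of the samples (correlations of same-numbered deviations −0.13, 0.06 and −0.12). Those of different numbers ran from −0.09 to 0.19. With 1 library per group standing apart, such correlations cannot exclude a pairing. With the replicate block, 75 members were called and 11 passed the study's threshold. Over the named members, 853 alternative values kept direction and call, 41 lost the call, 12 gained it and 14 reversed. Over the other named genes the numbers were 797, 17, 44 and 36. LINC genes under 1 CPM rest on few counts, and 3 replicates per group cannot give an exact permutation p below 0.1.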
